A study of Mus musculus with 58 samples.

Results

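Whole-body vibration training (WBV) of mice with a C26 tumour was examined in their hind limb muscles, by comparing tumour-bearing trained mice (T + WBV) with tumour-bearing untrained mice (T) over the m. extensor digitorum longus (EDL) and the m. soleus (SOL) together. The comparison comprised 22 arrays of 11 mice, 10 arrays of 5 T + WBV mice and 12 arrays of 6 T mice, of 58 arrays and 23 mice in all. They were chosen by group and tissue, and EDL and SOL of a mouse were joined by the mouse number in the labels. All mice were male CD2F1 (BALB/c x DBA/2), aged 6 to 8 weeks and housed singly. C26 is a mouse colon carcinoma line, and its cells were placed under the skin of the right flank. The 24 arrays of 12 mice without a tumour, which received a sham injection of buffer and no training (C, 6 mice) or training (C + WBV, 6 mice), were used as the background. Training took 15 min per day at 45 Hz and 1.0 g from day 1. Tissue was taken at day 19, at least a day after the last session. The model is 1 tumour cell line in 1 mouse strain and 1 sex, seen at a single time point.

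Cachexia is a wasting syndrome with loss of muscle that occurs in cancer and in other chronic diseases. In wasting muscle, ubiquitin ligases such as MuRF1 and atrogin-1 mark contractile proteins for the proteasome, glucocorticoids and cytokines such as IL-6 drive the transcription of these ligases, and the genes of energy metabolism and of the extracellular matrix are turned down. Vibration is a mechanical stimulus that makes the muscles of a standing animal contract by reflex. EDL is built mainly of fast fibres, and SOL holds many slow fibres beside fast ones. A response that both muscles share therefore does not by itself show which fibre type carries it.

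The values are log2 intensities. The 22 arrays had medians of 4.515 to 4.595. The median correlation of an array with the others of its group was 0.980 to 0.991 in EDL and 0.975 to 0.989 in SOL. The tissue labels held for fibre genes. The mean log2 level of 12 slow fibre genes was 6.78 to 8.20 in EDL and 10.47 to 11.11 in SOL of T mice, and 6.31 to 8.09 and 10.70 to 11.15 in T + WBV mice. Nothing in the sources used here matches T and T + WBV mice to each other.

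Transcripts of the small intestine stood out in both muscles of 1 trained mouse, T + WBV replicate 4. Fabp2, the fatty acid carrier of enterocytes, was at a log2 level of 9.03 in its EDL and 11.3 in its SOL, against at most 2.72 and 2.85 in the other 10 tumour-bearing mice. Apoa1, the main apolipoprotein of high density lipoprotein, made by gut and liver, was at 8.74 and 11.2 against at most 4.29 and 5.80. Sis, the brush border enzyme sucrase-isomaltase, was at 4.46 and 7.87 against at most 2.58 and 2.85, and Muc2, the mucin of goblet cells, at 5.90 and 8.83 against at most 3.71 and 3.86. A list of 30 genes of the small-intestinal epithelium was written after these levels had been seen. All 30 were highest in this mouse in EDL and all 30 in SOL, with a mean log2 level of 5.58 in EDL and 8.01 in SOL. The other tumour-bearing mice lay at 3.29 to 3.43 and 3.27 to 3.55, and mice without a tumour at 3.34 to 3.81 and 3.30 to 3.49. In the heart array of the same mouse the mean was 3.34, within the range of the other hearts. In its SOL 208 genes, and in its EDL 42, were more than 1 log2 unit above every other tumour-bearing mouse, against at most 17 and 23 genes in any other mouse. The calls between T + WBV and T, the genes of the same direction, the named genes, the list medians and the summed mass were therefore also computed without this mouse. The counts of genes whose groups did not overlap or that had an unadjusted p under 0.05 in both muscles were not. Nor were the ranges of marker levels. The part of these transcripts in any other difference was not tested.

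A different mouse, T + WBV replicate 2, stood apart in the tumour response and in body mass. Its body mass at day 19 was 100.9% of its mean on days 0 and 1, against 75.9 to 87.8% in the other T + WBV mice and 77.5 to 91% in T. Lcn2, which encodes the acute phase protein lipocalin 2, was at a mean log2 level over both muscles of 6.38 in this mouse, against 9.62 to 11.11 in the other T + WBV mice, 8.38 to 10.97 with a median of 10.23 in T, and 4.69 to 5.92 in C. Among T mice, replicate 3 had the highest body mass, 91%, and the lowest Lcn2.

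EDL and SOL together weighed 12.3, 15.0, 12.6, 14.1 and 14.8 mg in T + WBV replicates 1 to 5 and 10.8 to 14.0 mg, with a median of 12.45 mg, in T. The groups overlapped. The means were 13.8 ± 1.25 mg (SD, n = 5) and 12.4 ± 1.03 mg (SD, n = 6), and the difference was 1.36 mg (exact two-sided permutation test, p = 0.0736, where 462 splits allow no p under 0.00216). Without T + WBV replicate 1, the lightest of the trained group, the difference was 1.72 mg (exact permutation test, p = 0.0429). This was the smallest p of the 11 omissions. The remaining omissions gave 1.04 to 1.68 mg, with p of 0.0635 to 0.186 in the same permutation test.

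Each gene was averaged over EDL and SOL of a mouse, and the 4 groups were fitted together in limma, with adjustment over 18820 genes and a threshold of 0.01. No gene passed between T + WBV and T. The counts were 0 for the mean of both muscles, 0 for EDL, 0 for SOL, and 0 for the difference between the muscles within the mouse (0% of genes each). At an unadjusted p under 0.05 stood 929 genes for the mean (4.94%), of which 558 were higher (2.96%) and 371 lower (1.97%) in T + WBV, 902 in EDL (4.79%), 939 in SOL (4.99%) and 880 for SOL minus EDL (4.68%). The smallest adjusted p of limma for the mean was 0.534, for Slc26a2. The same fit called 4624 genes between T and C (24.6%), 1982 higher (10.5%) and 2642 lower (14%). It called 0 between C + WBV and C (0%; 513 at an unadjusted p under 0.05, 2.73%) and 0 for the interaction of tumour and training (0%; 614, 3.26%). The SE of the mean difference had a median of 0.093 over genes, and the median size of the difference was 0.071.

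The same sign in EDL and SOL was seen for 10990 genes (58.4%), and 7830 genes had opposite signs. With each of the 11 mice left out in turn, 2258 genes were higher in both muscles in every setting (12%) and 1937 lower (10.3%). Of these, 158 (0.84%) and 78 (0.414%) differed by 0.3 or more in each muscle. An unadjusted p under 0.05 in EDL and again in SOL was found for 63 genes in the same direction (0.335%), 43 higher and 20 lower, and for 7 in opposite directions (0.0372%). Mouse means did not overlap between T + WBV and T for 22 genes that were higher (0.117%) and 27 that were lower (0.143%), and for no gene were the groups apart in EDL and in SOL alike. EDL and SOL of a mouse share the animal and its tumour, so agreement between them is not a repeat in other mice. Without T + WBV replicate 4, 2472 genes were higher and 2013 lower in every setting, and 1669 and 1357 of the genes above were among them.

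**Figure D1:**
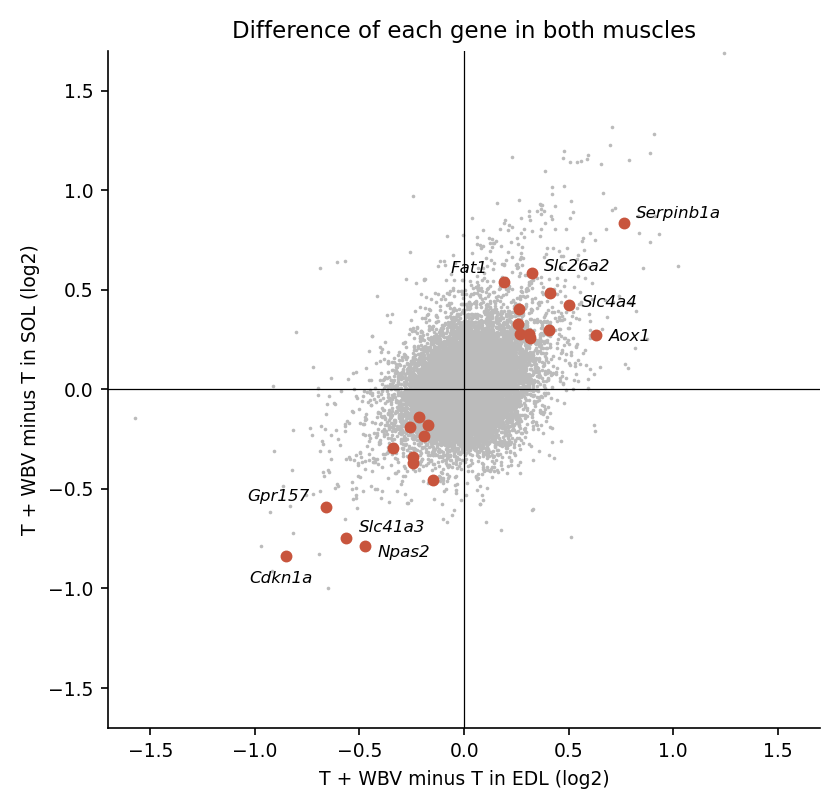
Difference between T + WBV and T (log2) in EDL on the horizontal axis and in SOL on the vertical axis for 18820 genes (grey), with the 24 genes described individually in red and the largest of them named. Serpinb1a is at 0.76 and 0.84 and Cdkn1a at −0.85 and −0.84, and the grey points far above in SOL include intestinal transcripts of T + WBV replicate 4.

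Single mice moved the number of genes at an unadjusted p under 0.05. From 929 with all mice it was 2286 once T replicate 3 was omitted, 1546 for T + WBV replicate 3, 1474 for T + WBV replicate 4, 554 for T replicate 2 and 601 for T + WBV replicate 2. The remaining omissions gave 756 to 1042. No omission gave a call for the mean of both muscles, and the smallest adjusted p of limma was 0.0882, for Gpr157 without T replicate 3.

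Because no gene passed, the 12 genes with the smallest p in each direction were described, among those above the median level that had the same sign in both muscles in every omission. They were picked by their p in this very comparison, so their values describe the mice measured and support no call. The adjusted p of limma ran from 0.534 to 0.87. In 13 of the 24 the unadjusted p was under 0.05 in EDL and in SOL, and in none was it under 0.05 for the difference between the muscles. The difference between C + WBV and C did not enter the choice, but the spread of these mice did through the shared fit. In it 16 of the 24 had the same sign, and the largest size was 0.25. None had an unadjusted p under 0.05 in limma (2.73% of all genes). The share of all genes with the same sign is not given here, so the count of 16 supports no agreement. Without T + WBV replicate 4 all 24 kept an unadjusted p under 0.05, with adjusted p of 0.615 to 0.62, but the choice itself depended on that mouse. Applied without it, the same rule named 5 of the 24, which were Slc26a2, Serpinb1a, Ak3, Naa60 and Nsmce3. Among the genes it named in their place were Tbc1d1, a Rab GTPase-activating protein in the uptake of glucose (0.79), Ppargc1b, a coactivator of mitochondrial genes (0.84), the transcription factor Sox4 (−1.17), and Klf15 (−0.74), each with an adjusted p of 0.615 in limma.

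Transporters were among the genes that were higher in T + WBV. Slc26a2 encodes the sulfate transporter that supplies sulfate for proteoglycans. Its mean log2 level over both muscles was 5.93, 6.28, 5.94, 6.26 and 5.88 in T + WBV replicates 1 to 5 and 5.50 to 5.75 with a median of 5.59 in T. The groups did not overlap, and they still did not without T + WBV replicate 4. The difference was 0.45 (SE 0.09, adjusted p = 0.534 in limma), 0.32 in EDL and 0.58 in SOL, and 0.40 (SE 0.09) without replicate 4. That mouse gave 6.86 in SOL, the highest of all, and 5.67 in EDL, within the T range. In C the level was 6.00 to 6.39. Slc4a4 encodes the sodium bicarbonate cotransporter that moves base across the cell membrane. It was at 6.01, 6.33, 5.51, 5.68 and 6.01 in T + WBV and 5.17 to 6.01 with a median of 5.36 in T. All T mice but replicate 3, at 6.01, lay below all T + WBV mice. The difference was 0.46 (SE 0.13), 0.50 in EDL and 0.42 in SOL, and 0.29 with body mass as a covariate.

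Serpinb1a had the largest difference among these higher genes. It encodes an inhibitor of the serine proteases of neutrophils. Its mean level was 5.69, 5.71, 5.58, 6.66 and 6.16 in T + WBV and 4.64 to 5.64 with a median of 5.14 in T. Only T + WBV replicate 3 lay below the highest T mouse. The difference was 0.80 (SE 0.17, adjusted p = 0.668 in limma). In EDL every T + WBV mouse, at 5.68, 5.50, 5.52, 5.51 and 6.08, lay above every T mouse, at 4.54 to 5.46 with a median of 4.78. In SOL the groups overlapped, with 5.70, 5.93, 5.64, 7.79 and 6.25 against 4.40 to 5.81 with a median of 5.58, and the value of 7.79 is that of the mouse with intestinal transcripts. Without it the difference was 0.63 for the mean, 0.80 in EDL and 0.45 in SOL, so the value in SOL was lower by more than 1.5 times. The level in C was 5.02 to 5.53, and the difference between C + WBV and C was 0.14. Neutrophil markers, 15 genes, had a median difference between T + WBV and T of −0.04 (0.04 in EDL, −0.13 in SOL) that ran from −0.10 to 0.06 over the omissions and was above 0 without T + WBV replicate 2 and without replicate 5, and their mean level was 3.79 to 4.95 in EDL of T + WBV, 3.84 to 4.74 in T and 3.38 to 3.68 in C. In bulk tissue, fewer cells of a type and less RNA per cell cannot be told apart.

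**Figure D2:**
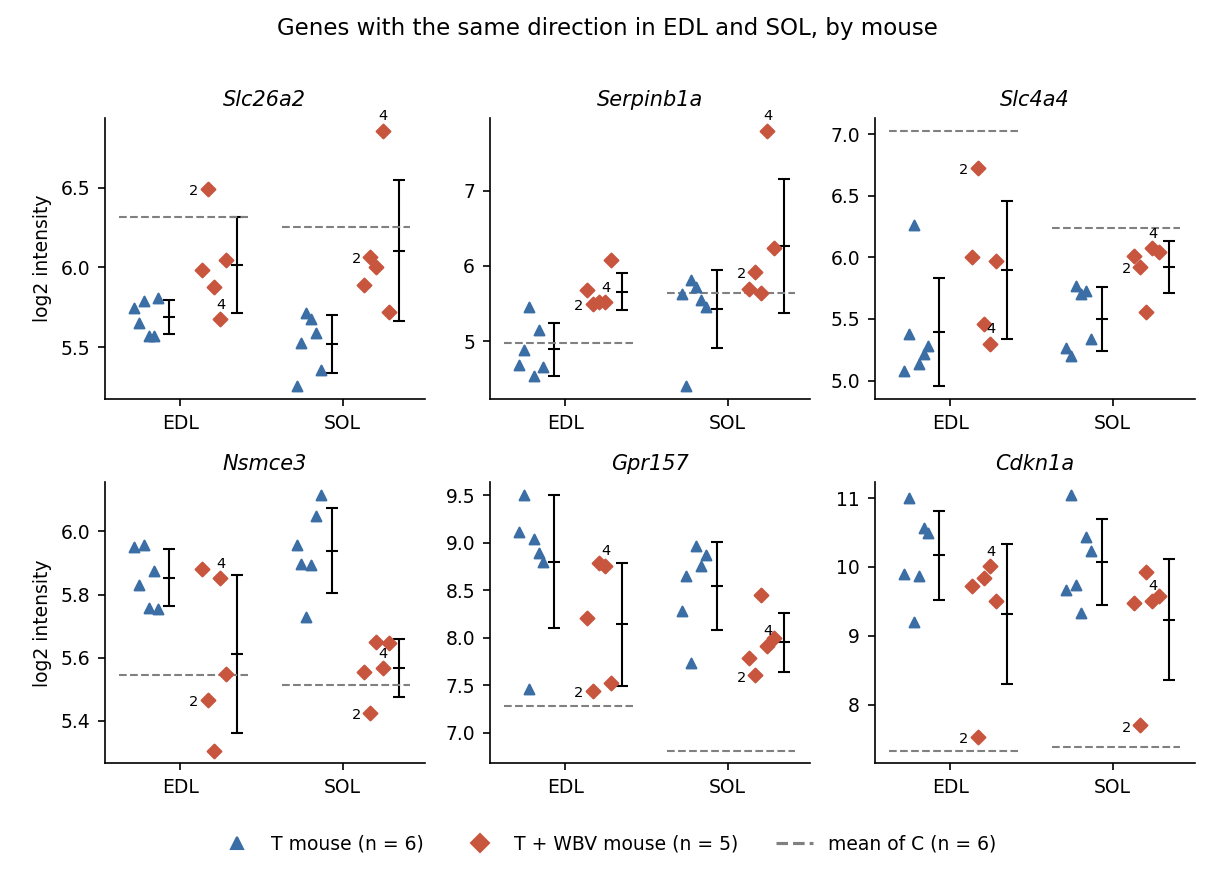
Log2 intensity of 6 genes in EDL and SOL of each T mouse (triangles, n = 6) and T + WBV mouse (diamonds, n = 5), with bars for the mean and SD of a group and the mean of C as a dashed line. T + WBV replicates 2 and 4 are labelled. Slc26a2 and Serpinb1a are highest in SOL of replicate 4, at 6.86 and 7.79, and Cdkn1a is lowest in replicate 2 in both muscles.

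Genes of mitochondria and metabolism were also among the higher ones. Ak3 encodes the adenylate kinase of the mitochondrial matrix, which uses GTP. It was at 8.57, 8.94, 8.71, 8.50 and 8.87 in T + WBV and 8.09 to 8.63 with a median of 8.42 in T, and the groups overlapped. The difference was 0.29 (SE 0.09), alike in EDL (0.31) and SOL (0.28). Mtfmt, whose product formylates the initiator methionyl-tRNA of mitochondria, was at 6.02, 6.48, 6.03, 5.88 and 5.91 in T + WBV and 5.18 to 6.01 with a median of 5.63 in T, a difference of 0.45 (SE 0.13) that was 0.34 without T + WBV replicate 2. Aox1 encodes aldehyde oxidase. It was at 8.00, 8.11, 8.66, 8.34 and 8.24 in T + WBV and 7.34 to 8.11 with a median of 7.89 in T, with 0.45 (SE 0.13) for the mean, 0.63 in EDL and 0.27 in SOL. Without T + WBV replicate 4 its difference in SOL was 0.14.

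The remaining higher genes differed by 0.27 to 0.37. Fat1, a giant cadherin of the cell surface, was at 5.99, 5.93, 5.53, 6.17 and 5.89 in T + WBV and 5.34 to 5.82 with a median of 5.54 in T, and only T + WBV replicate 3 lay within the T range. Phldb2, which helps to anchor acetylcholine receptors at the neuromuscular junction, was at 6.15, 6.41, 5.98, 6.03 and 6.13 against 5.36 to 6.16 with a median of 5.84. Naa60, an N-terminal acetyltransferase of the Golgi, was at 8.14, 8.27, 7.93, 7.84 and 8.16 against 7.55 to 7.97 with a median of 7.84. These are small differences that overlap between the groups. Dcp2, the enzyme that removes the cap of mRNA, differed by 0.33 (SE 0.10), the small GTPase Rab29 by 0.29 (SE 0.09), and the kinesin Kif21a by 0.29 (SE 0.09). In C, Phldb2 was at 6.47 to 6.68 and Naa60 at 8.21 to 8.38.

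Of the 12 lower genes described, Nsmce3 was the one whose groups did not overlap. Nsmce3 encodes a subunit of the SMC5/6 complex, which acts in DNA repair. Its mean level was 5.72, 5.45, 5.48, 5.71 and 5.60 in T + WBV and 5.82 to 5.96 with a median of 5.90 in T, and without T + WBV replicate 4 the groups stayed apart. The difference was −0.31 (SE 0.09), with −0.24 in EDL, where T + WBV replicates 1 and 4 lay within the T range, and −0.37 in SOL, where no T + WBV mouse did. In C it was at 5.28 to 5.76. Slc41a3, a magnesium transporter, was at 7.48, 8.03, 7.92, 7.62 and 7.12 in T + WBV and 7.73 to 8.96 with a median of 8.20 in T. The difference of −0.65 (SE 0.19) ran from −0.77 to −0.52 over the omissions, and the difference between C + WBV and C was −0.25 (SE 0.18).

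The largest lower difference among the 24 genes was that of Cdkn1a. Cdkn1a encodes p21, an inhibitor of the cell cycle kinases that is switched on in atrophying muscle. It was at 9.60, 7.62, 9.88, 9.76 and 9.54 in T + WBV, 9.47 to 11.02 with a median of 10.07 in T and 6.83 to 7.95 in C. T + WBV replicate 2 alone lay within the C range, and the other trained mice lay within the T range. The difference was −0.84 (SE 0.31), −0.85 in EDL and −0.84 in SOL, and it was −0.43 without replicate 2 and −0.45 with body mass as a covariate. Gpr157, an orphan G protein-coupled receptor, was at 7.99, 7.52, 8.61, 8.33 and 7.76 in T + WBV and 7.60 to 9.07 with a median of 8.83 in T. Its lowest T mouse, replicate 3, lay apart from the other T mice. The difference was −0.63 (SE 0.20), −0.84 without T replicate 3 (adjusted p = 0.0882 in limma) and −0.37 with body mass as a covariate. Siah1a, a ubiquitin ligase, was at 6.24, 6.06, 6.45, 6.54 and 6.34 against 6.17 to 6.99 with a median of 6.68, with −0.29 (SE 0.11) and −0.18 with the covariate. The part of body mass in these differences was not tested beyond this covariate.

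The smaller of the lower differences covered several functions. Ctu2, which adds sulfur to the wobble base of tRNA, was at 5.02, 4.95, 5.25, 5.20 and 5.18 in T + WBV and 5.11 to 5.67 with a median of 5.49 in T (−0.32, SE 0.11). Npr3, the clearance receptor for natriuretic peptides, was at 7.23, 7.31, 7.59, 7.10 and 7.35 against 7.37 to 7.88 with a median of 7.58, with −0.15 in EDL and −0.46 in SOL, and without T + WBV replicate 4 its difference in EDL was −0.09. Alkbh3, a demethylase of alkylated nucleic acids, differed by −0.18 (SE 0.06), and T + WBV replicate 3 lay inside the T range. Slc66a2 (−0.22), Wfdc11 (−0.21) and Tmem248 (−0.18) had the remaining values.

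Over the 24 genes, T + WBV replicate 2 was the trained mouse farthest in the direction of the difference in 18, replicate 4 in 3, replicate 5 in 2 and replicate 3 in 1. T replicate 3 was the untrained mouse that lay farthest the same way in 14. The difference was smallest without T + WBV replicate 2 for 12 genes and largest without T replicate 3 for 10. In 9 genes T + WBV replicate 4 was the farthest mouse in at least 1 muscle. Without both T + WBV replicate 2 and T replicate 3, a setting chosen after the data had been seen, 0 genes passed for the mean, 1252 had an unadjusted p under 0.05, and the smallest adjusted p of limma was 0.219, for Serpinb1a.

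**Figure D3:**
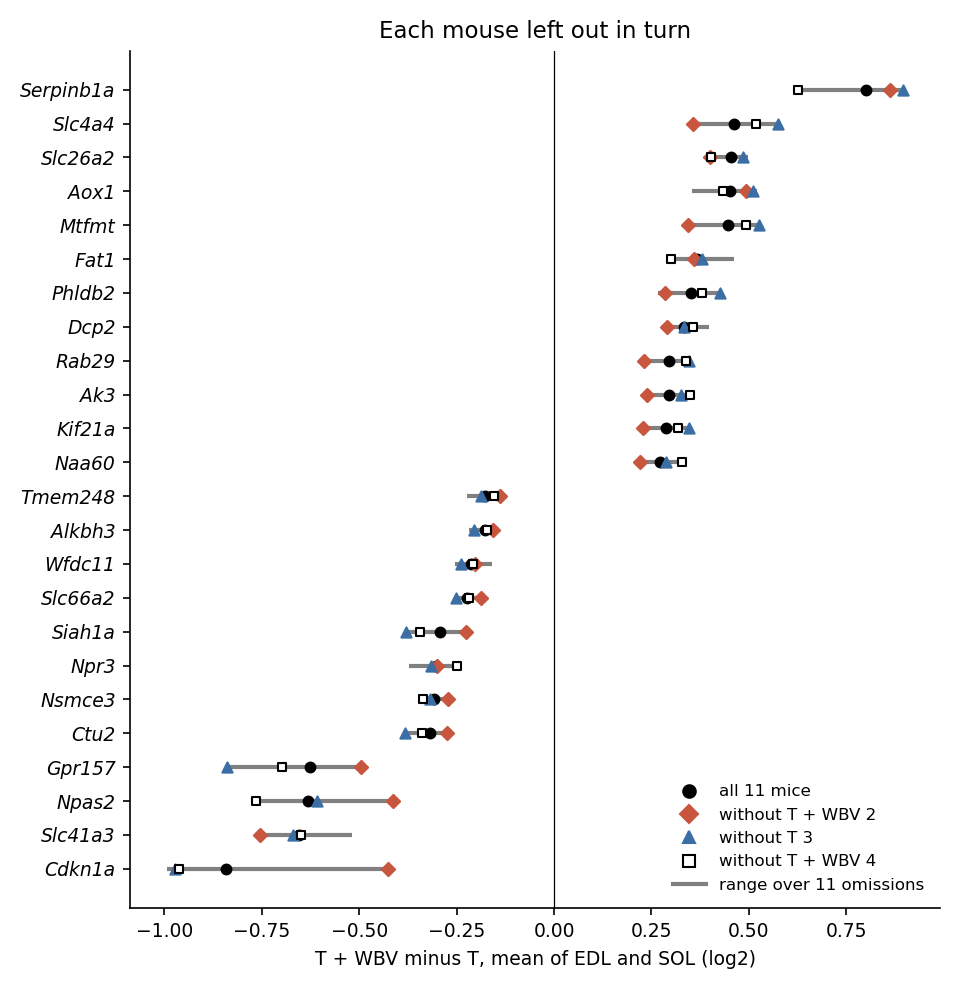
Difference between T + WBV and T (log2, mean of EDL and SOL) for the 24 genes with all 11 mice (circles), with T + WBV replicate 2 left out (diamonds), T replicate 3 left out (triangles) and T + WBV replicate 4 left out (open squares), and with the range over the 11 omissions as a bar. No bar crosses 0, which the choice of genes fixed, and Cdkn1a spans the widest range, from −0.99 to −0.43.

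Genes of the circadian clock had differences in both directions. In the clock, BMAL1 (Arntl) pairs with CLOCK or its relative NPAS2 to switch on genes through E-boxes, and the products of Per and Bhlhe genes hold this pair back. D-boxes and the element bound by ROR and REV-ERB receptors are the other main clock motifs. Of 23 clock genes listed, 19 were measured, 0 passed, and 2 were higher and 2 lower at an unadjusted p under 0.05 for the mean (2.96% and 1.97% of all genes). No source used here gives the time of day at which each mouse was killed.

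Per3, a period gene, was at a mean log2 level of 6.74, 7.46, 6.58, 6.95 and 6.46 in T + WBV, 5.42 to 6.76 with a median of 6.37 in T and 7.23 to 7.72 in C. The difference was 0.52 (SE 0.18, adjusted p = 0.87 in limma), 0.38 in EDL and 0.67 in SOL, and it was 0.34 without T replicate 2. Bhlhe41, which encodes the repressor DEC2, was at 6.24, 7.89, 6.53, 6.33 and 6.65 in T + WBV, 5.03 to 6.75 with a median of 6.27 in T and 8.15 to 8.46 in C. Only T + WBV replicate 2, at 7.89, lay above the T range, and the difference of 0.64 (SE 0.24) was 0.35 without that mouse. Npas2, which is also 1 of the 24 genes, was at 5.55, 4.54, 5.84, 5.95 and 5.16 in T + WBV, 5.43 to 6.62 with a median of 6.02 in T and 4.09 to 5.08 in C. T + WBV replicates 2 and 5 lay below every T mouse, and the difference of −0.63 (SE 0.23) was −0.41 without replicate 2. Arntl was picked after its values had been seen, as the lowest difference of all genes. It was at 6.45, 4.66, 6.41, 6.07 and 6.90 in T + WBV, 5.85 to 8.46 with a median of 6.87 in T and 4.54 to 5.62 in C, a difference of −0.92 (SE 0.39, adjusted p = 0.87 in limma) that was −0.56 without replicate 2 and −0.91 without replicate 4. Between C + WBV and C the differences were −0.04 for Per3, −0.23 for Bhlhe41, −0.15 for Npas2 and −0.33 for Arntl.

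The promoters of these genes are shown because the clock elements named above can be read in their letters. Each is a window of 300 bases around the gene's start in RefSeq (GRCm38.p6), 5′ to 3′ on the gene's strand. Capitals mark a match on either strand to the E-box CACGTG, the D-box TTATGTAA or AGGTCA, the core of the ROR and REV-ERB element. The window of Per3 is chr4:151044616-151044915 (minus strand), that of Bhlhe41 chr6:145865371-145865670 (minus strand), and the window shown for Arntl chr7:113207261-113207560 (plus strand).
Per3: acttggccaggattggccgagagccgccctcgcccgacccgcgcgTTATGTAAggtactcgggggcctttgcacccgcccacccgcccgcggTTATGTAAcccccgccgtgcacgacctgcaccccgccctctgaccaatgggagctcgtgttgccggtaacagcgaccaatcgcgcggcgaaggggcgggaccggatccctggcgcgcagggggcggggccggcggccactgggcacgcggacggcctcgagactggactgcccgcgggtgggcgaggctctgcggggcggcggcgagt
Bhlhe41: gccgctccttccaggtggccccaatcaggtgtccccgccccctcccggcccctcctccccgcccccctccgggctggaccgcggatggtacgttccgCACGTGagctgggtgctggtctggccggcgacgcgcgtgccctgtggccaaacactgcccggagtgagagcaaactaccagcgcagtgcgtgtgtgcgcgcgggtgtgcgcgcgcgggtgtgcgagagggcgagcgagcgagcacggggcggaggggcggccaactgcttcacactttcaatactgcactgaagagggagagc
Arntl: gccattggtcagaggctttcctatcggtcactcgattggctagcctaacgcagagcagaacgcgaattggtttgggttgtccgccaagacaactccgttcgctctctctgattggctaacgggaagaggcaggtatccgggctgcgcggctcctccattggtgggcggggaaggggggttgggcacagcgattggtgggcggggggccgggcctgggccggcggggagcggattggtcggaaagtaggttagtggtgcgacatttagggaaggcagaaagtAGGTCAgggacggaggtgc
Per3 has 2 D-boxes, Bhlhe41 has 1 E-box and this window of Arntl has 1 core of the ROR and REV-ERB element. A second window of Arntl, from position 113207215 to 113207514, and the window of Npas2 (chr1:39194022-39194321, plus strand) held no match. Of 32851 promoter windows, 7.15% hold the E-box, 0.938% the D-box and 16.3% that core. A match describes the letters only, and no binding was measured.

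**Figure D4:**
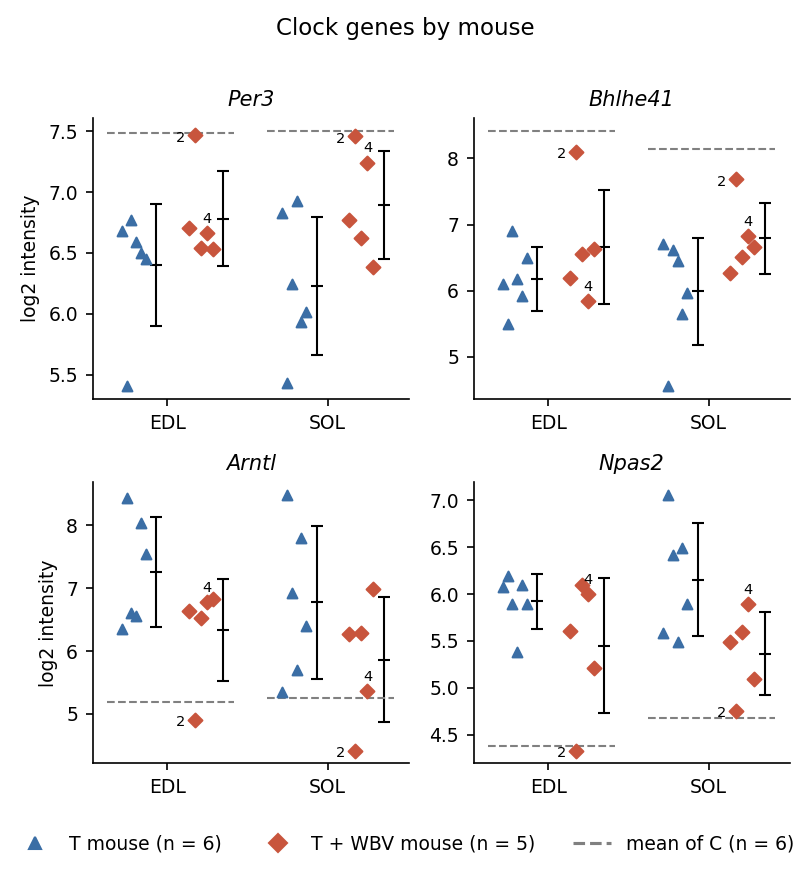
Log2 intensity of 4 clock genes in EDL and SOL of each T mouse (triangles, n = 6) and T + WBV mouse (diamonds, n = 5), with bars for the mean and SD of a group and the mean of C as a dashed line. T + WBV replicates 2 and 4 are labelled, and of the trained mice replicate 2 lies farthest towards C or beyond it in each gene and muscle.

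Among the genes of wasting, more were lower than higher in T + WBV, and the medians moved when single mice were left out. Gene lists are described by their counts and medians, beside 12% of all genes higher and 10.3% lower in both muscles in every omission, and a median over all genes of 0.00. Of 23 measured ubiquitin ligase and atrophy genes, 1 was higher and 6 lower in every omission, with a median of −0.11, which was −0.05 with T replicate 2 omitted and −0.01 with T + WBV replicate 2 omitted. Trim63, the ligase MuRF1, was at 11.07, 9.17, 11.04, 11.77 and 10.54 in T + WBV and 10.47 to 11.63 with a median of 11.44 in T. Of the 11 tumour-bearing mice T + WBV replicate 2 was the lowest and replicate 4 the highest. The difference of −0.55 (SE 0.27) was −0.16 without replicate 2 and −0.81 without replicate 4. Fbxo32, the ligase atrogin-1, was at 11.36, 10.00, 11.46, 11.97 and 10.87 against 11.19 to 11.66 with a median of 11.50, and its difference of −0.30 was −0.02 and −0.51 without these mice.

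Of 19 measured glucocorticoid targets, 1 was higher and 6 lower in every omission, and the median of −0.15 was −0.32 with T replicate 3 omitted, 0.00 with T + WBV replicate 2 omitted and −0.23 with T + WBV replicate 4 omitted. Klf15, a transcription factor that glucocorticoids induce and that promotes the breakdown of amino acids, was at 8.36, 7.68, 8.66, 9.14 and 7.91 in T + WBV and 8.06 to 9.30 with a median of 9.04 in T. Its groups overlapped, and the difference of −0.54 (SE 0.21) was −0.74 without replicate 4 and −0.31 with body mass as a covariate. Of 32 genes of the acute phase and of IL-6/STAT3 signalling, 2 were higher and 10 lower in every omission, with a median of −0.06 that ran from −0.13 to 0.03 over the omissions and was above 0 without T + WBV replicate 2 only. Cebpb, a transcription factor of this response, was at 8.19, 7.58, 8.40, 8.57 and 7.91 in T + WBV and 7.82 to 8.97 with a median of 8.45 in T (−0.34, SE 0.16), −0.20 without T + WBV replicate 2 and −0.15 with the covariate. Lcn2 differed by −0.54 and Serpina3n, an acute phase inhibitor of proteases, by −0.44, and without T + WBV replicate 2 both differences were above 0, at 0.23 and 0.12.

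Genes of protein turnover were mostly lower in T + WBV by the sign of the mean difference, 61 of 66 ribosomal protein genes, 32 of 41 proteasome genes and 21 of 28 genes of autophagy and the lysosome, and the sizes were small. Of the 66 ribosomal protein genes 0 were higher and 20 lower in every omission, with a median of −0.05 (−0.03 in EDL and −0.09 in SOL) that was −0.03 with T replicate 2 omitted and −0.03 with T + WBV replicate 2 omitted. Of the 41 proteasome genes 0 were higher and 10 lower, with a median of −0.07, which was −0.04 with T replicate 1 omitted, −0.12 with T replicate 3 omitted, −0.02 with T + WBV replicate 2 omitted and −0.11 with T + WBV replicate 5 omitted. Of the 28 genes of autophagy and the lysosome 2 were higher and 6 lower (median −0.09, −0.03 with T + WBV replicate 2 omitted). With all mice no gene of these lists had an unadjusted p under 0.05 for the mean in limma. Over all genes 2.96% were higher and 1.97% lower at that level. Without T + WBV replicate 4 the autophagy list had 1 higher and 7 lower, the proteasome 0 and 3, and the ribosomal proteins 0 and 0. In that setting 847 of all 18820 genes were higher and 627 lower at the same level.

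Metabolic genes lay mostly on the other side. Of 24 genes of glycolysis and glycogen, 10 were higher and 1 lower in every omission, with a median of 0.14 (0.23 in EDL, 0.07 in SOL). The highest was Gpd1, glycerol-3-phosphate dehydrogenase, at 0.60. The median was 0.07 with T replicate 2 omitted and 0.07 with T + WBV replicate 2 omitted. For oxidative phosphorylation, 70 of 75 genes had a mean difference above 0, but only 5 kept it in both muscles in every omission, and the median of 0.08 was 0.15 in EDL and 0.01 in SOL. That median was 0.03 with T replicate 2 omitted, 0.15 with T replicate 3 omitted, 0.05 with T replicate 5 omitted and 0.01 with T + WBV replicate 2 omitted. Of 21 genes of the citrate cycle, 7 were higher and 0 lower (median 0.11, 0.03 with T replicate 2 omitted, 0.18 with T replicate 3 omitted and 0.04 with T + WBV replicate 2 omitted). Of 29 genes of calcium handling 7 were higher and 1 lower (median 0.09, 0.03 with T replicate 2 omitted, 0.14 with T replicate 3 omitted and 0.03 with T + WBV replicate 2 omitted). Pvalb, the calcium buffer parvalbumin of fast fibres, was at 9.66, 10.41, 7.87, 9.03 and 10.10 in T + WBV and 7.53 to 9.72 with a median of 8.80 in T, an overlap, and differed by 0.70 (SE 0.38) and by 0.53 (SE 0.36) between C + WBV and C. The first of these was 0.47 without T replicate 2, 0.45 without T + WBV replicate 2, 1.09 without T + WBV replicate 3 and 0.32 with body mass as a covariate.

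Genes of the matrix and of the cells that make it were mostly higher in T + WBV by the sign of the mean difference, 9 of 9 markers of fibro-adipogenic progenitors, 34 of 42 genes of the extracellular matrix and 13 of 15 tendon genes, beside 9670 of all 18820 genes. How many were higher in both muscles in every omission is to be read against 12% of all genes. Of the 9 measured markers of fibro-adipogenic progenitors, the connective tissue cells of muscle, 8 were higher in every omission and 0 lower, with a median of 0.28, 0.48 with T replicate 3 omitted, 0.16 with T + WBV replicate 1 omitted and 0.51 with T + WBV replicate 3 omitted. Their mean level in EDL was 6.76 to 8.10 in T + WBV, 6.87 to 8.06 in T and 7.67 to 8.06 in C, so the tumour-bearing groups overlapped widely. Lum, the matrix proteoglycan lumican, was at 6.78, 7.34, 5.27, 6.25 and 6.28 in T + WBV and 4.62 to 7.11 with a median of 5.51 in T (0.82, SE 0.32), and 0.37 with body mass as a covariate. Dpp4, a surface peptidase of these cells that the brush border of the intestine also carries, was at 5.66, 5.96, 4.51, 6.28 and 5.05 against 4.24 to 5.27 with a median of 4.88. Its highest value was in SOL of the mouse with intestinal transcripts, 7.17, and the difference of 0.65 (SE 0.23) was 0.45 without that mouse. Clec3b, which encodes tetranectin, differed by 0.45 (SE 0.20) and by 0.29 without T replicate 2 and 0.20 with the covariate. Of the 42 genes of the extracellular matrix, 15 were higher and 2 lower (median 0.19, 0.09 in EDL and 0.26 in SOL). The median was 0.11 with T replicate 2 omitted, 0.12 with T + WBV replicate 1 omitted, 0.09 with T + WBV replicate 2 omitted and 0.34 with T + WBV replicate 3 omitted. Of the 15 tendon genes 4 were higher and 0 lower (median 0.29, 0.12 with T + WBV replicate 1 omitted, 0.08 with T + WBV replicate 2 omitted and 0.47 with T + WBV replicate 3 omitted). Col1a1, a chain of type I collagen, was at 8.10, 9.63, 6.12, 7.41 and 7.15 against 6.09 to 8.87 with a median of 6.64, and its difference of 0.74 (SE 0.47) was 0.26 without replicate 2, 1.13 without T + WBV replicate 3 and 1.13 without T replicate 3.

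Immune genes differed by class. Of 32 interferon response genes 19 were higher in every omission and 0 lower, with a median of 0.16, 0.13 in EDL and 0.16 in SOL. The median was 0.08 without T + WBV replicate 2 and 0.18 without replicate 4. Ddx58, the RNA sensor RIG-I, was at 5.78, 5.80, 5.63, 5.45 and 5.403 in T + WBV, 5.16 to 5.75 with a median of 5.38 in T and 5.58 to 5.91 in C, and differed by 0.23 (SE 0.10). Oasl2, an antiviral gene, was at 5.26, 5.56, 4.88, 5.00 and 5.20 against 4.54 to 5.25 with a median of 4.84, with 0.32 (SE 0.15) between the tumour-bearing groups and −0.35 (SE 0.15) between C + WBV and C. The median of the list between C + WBV and C was −0.06. Of 17 macrophage markers 9 were higher and 0 lower (median 0.21, 0.14 with T replicate 2 omitted and 0.11 with T + WBV replicate 1 omitted). Of 7 MHC class II genes 4 were higher and 0 lower (median 0.29, 0.18 with T + WBV replicate 1 omitted). The mean level of the macrophage markers was 5.19 to 5.87 in EDL of T + WBV and 5.10 to 5.77 in T, and 5.46 to 6.27 and 5.29 to 6.03 in SOL. Msr1, the scavenger receptor of macrophages, was at 4.31, 4.23, 4.29, 3.98 and 4.44 against 3.62 to 4.08 with a median of 3.88. All T + WBV mice but replicate 4 lay above all T mice, and the difference was 0.36 (SE 0.11), 0.18 in EDL and 0.54 in SOL. Cd209f, a lectin of resident macrophages, was at 4.74, 4.42, 3.88, 3.81 and 4.40 against 3.37 to 4.08 with a median of 3.77, and differed by 0.51 (SE 0.16), with 0.82 in EDL and 0.21 in SOL. Msr1 and Cd209f were the only 2 of the 17 markers with an unadjusted p under 0.05 for the mean in limma. Their levels, 4.05 and 3.97, lay below the median of 4.96 over all genes. By the sign of the mean difference 15 of the 17 were higher and 2 lower, with Cd68 lowest at −0.19. Lymphocyte markers, 15 genes, had a median of −0.02 (−0.03 to 0.01 over the omissions).

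Of 34 genes of mechanical load and the Z-disc, 5 were higher and 2 lower in every omission (median 0.02, −0.02 to 0.06 over the omissions), and of 36 exercise response genes 7 and 4 (median 0.01, −0.02 to 0.05 over the omissions). Both medians were highest without T + WBV replicate 4. Ttn, the giant spring protein titin, was at 11.53, 11.69, 11.53, 11.33 and 11.64 in T + WBV and 11.12 to 11.58 with a median of 11.38 in T (0.16, SE 0.07). Ky, a muscle peptidase of the Z-disc, was at 5.75, 8.35, 5.26, 5.24 and 5.93 in T + WBV, 4.13 to 7.37 with a median of 4.99 in T and 8.52 to 8.87 in C, with 0.85 (SE 0.45) for all mice and 0.29 without T + WBV replicate 2. Il15, a cytokine made by muscle, was at 5.76, 6.50, 5.31, 5.402 and 5.16 against 4.30 to 5.93 with a median of 5.13, a difference of 0.50 (SE 0.22), 0.28 without replicate 2. Of the energy sensors, Prkaa1, the catalytic subunit alpha 1 of AMPK, was at 7.97, 7.98, 7.92, 7.90 and 7.95 in T + WBV and 7.69 to 7.90 with a median of 7.86 in T. The groups did not overlap, and the difference was 0.11 (SE 0.06, adjusted p = 0.87 in limma). Prkaa2, subunit alpha 2, differed by 0.15 (SE 0.09), and by 0.09 without T replicate 2. Ppargc1a, a coactivator of mitochondrial genes, differed by −0.24 (SE 0.19), from −0.35 without T replicate 3 to −0.10 without T replicate 1. It was −0.13 without T + WBV replicate 5. The deacetylase Sirt1 differed by −0.11 (SE 0.10), from −0.19 without T replicate 3 to −0.05 without T + WBV replicate 1, and the kinase Akt1 by −0.18 (SE 0.12), from −0.28 without T replicate 3 to −0.08 without T + WBV replicate 2.

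**Figure D5:**
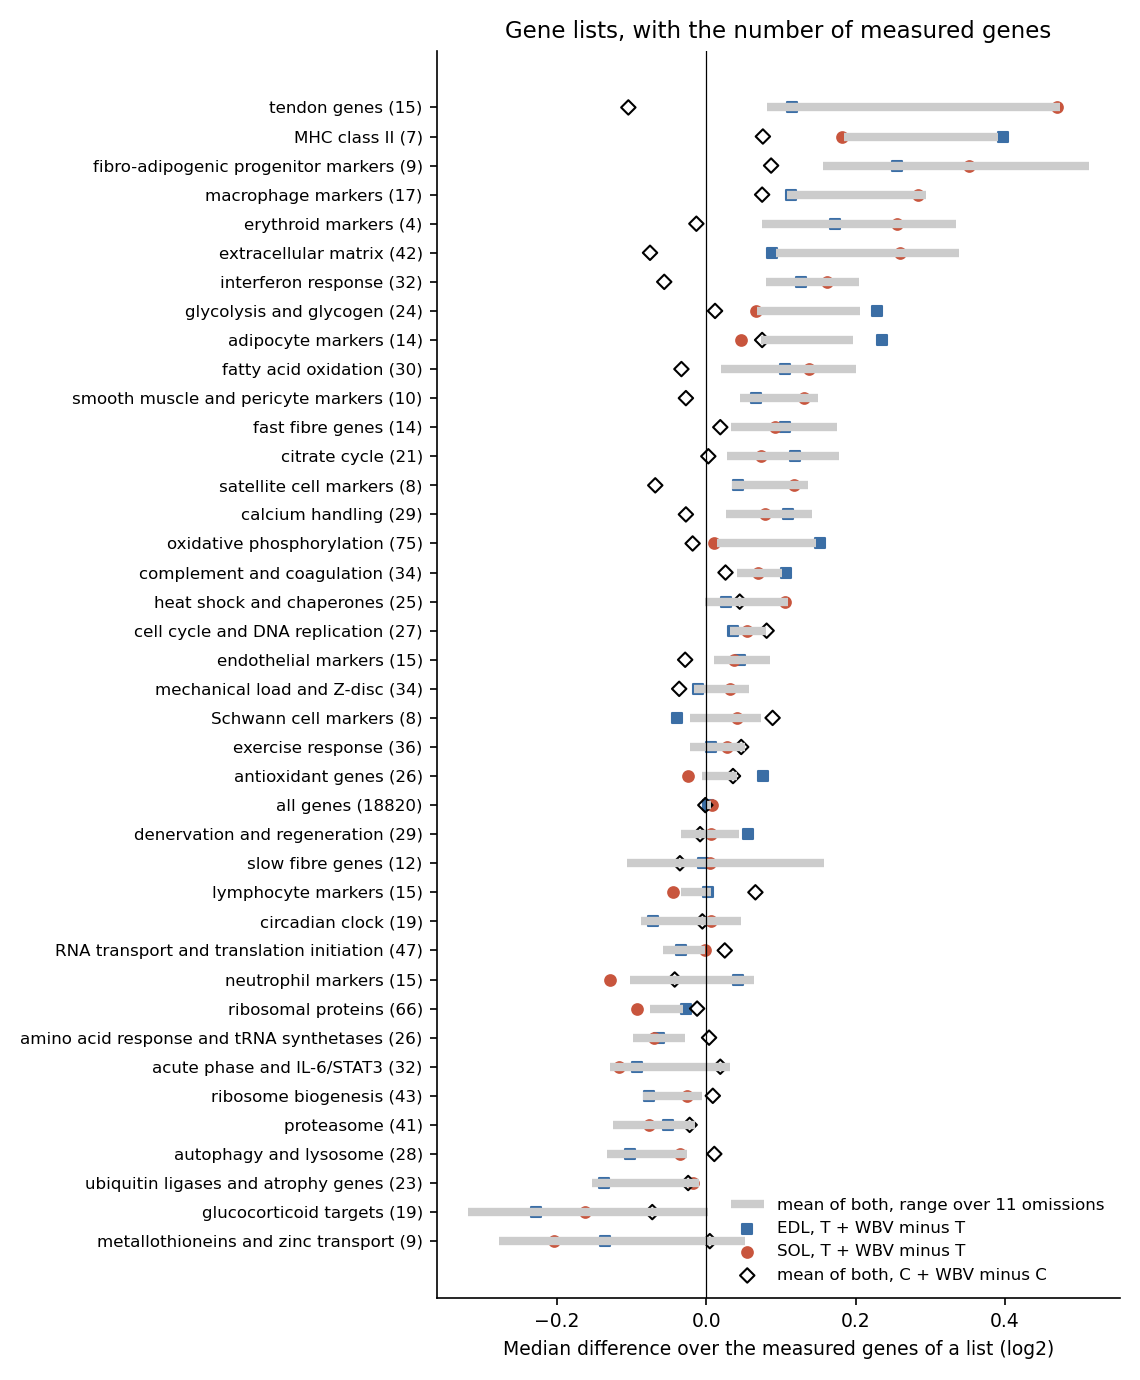
Median difference over the measured genes of 39 lists (log2, number of genes in parentheses) between T + WBV and T in EDL (squares) and SOL (circles), the range of the median for the mean of both muscles over the 11 omissions (grey bar), and the median between C + WBV and C (open diamonds). The bar of the glucocorticoid targets runs from −0.32 to 0.00, and that of the fibro-adipogenic progenitor markers from 0.16 to 0.51.

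Over all 39 lists, 935 different genes were measured and 0 passed. The median of 5 lists changed sign without T + WBV replicate 2, and other omissions changed signs as well. Without T + WBV replicate 5 the medians of mechanical load (−0.02), exercise response (−0.01) and heat shock genes (−0.0008) fell below 0. Those of the antioxidant genes (−0.004) and Schwann cell markers (−0.01) did so too, and that of the neutrophil markers rose above 0 (0.01). Medians between C + WBV and C, in other mice, were 0.09 for the fibro-adipogenic progenitor markers, −0.07 for the glucocorticoid targets, −0.10 for the tendon genes and −0.07 for the extracellular matrix. Whether they differ from those between T + WBV and T was tested per gene by the interaction only, in which 0 genes passed.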

How the data were processed

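Expression had been measured on GeneChip Mouse Gene 1.1 ST arrays from total RNA. The deposited values are log2 intensities of 35556 probe sets on 58 arrays, which the authors made with RMA (background correction, quantile normalization, summary over probes). No source used here names its version. Quantile normalization forces all arrays to the same distribution, so a shift shared by most genes cannot be seen. Of the probe sets, 21218 have exactly 1 gene symbol, 1881 several and 12457 none here, and those with 1 symbol were averaged into 18820 genes. EDL and SOL were averaged per mouse, and the 4 groups of 23 mice were fitted in R 4.3.3 with limma 3.58.1 (lmFit, eBayes with a variance trend). A gene was called at an adjusted p under 0.01 (Benjamini-Hochberg, all genes). EDL, SOL and their difference within the mouse were fitted likewise. Summed muscle mass was compared by an exact two-sided permutation test. The scripts were tested on simulated data.

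A gene was taken to have the same direction where EDL and SOL had the same sign with all 11 mice and with each left out. Named genes are the 12 with the smallest p in each direction among these and above the median level, up to 3 genes of each of 39 lists with an unadjusted p under 0.05, genes that the paper discusses in muscle, and markers of the tumour response. Arntl and the list of 30 small-intestinal genes were chosen after their values had been seen. The comparison, the members and the gene lists were chosen with earlier results of these data known. The number of arrays limits the precision. Alternatives were 1 prior variance, an intensity-based moderated statistic (loess span 0.3), only the tumour-bearing mice, the mouse as a random block (statmod 1.5.0), a second quantile normalization, a filter on low genes, array weights, a covariate for a suffix in array names, a replicate block, body mass as a covariate, all probe sets, and leaving out mice.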

Additional observations from a re-analysis of the deposited data

Results flagged for a closer look

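The groups examined were the 6 T mice and the 5 T + WBV mice, for each gene or mass. A mouse was marked where its gap to the nearest other mouse, as a share of the group's range, passed Dixon's critical value. Of 148 groups examined 13 were marked, and chance marks about 1 in 20. In T + WBV, replicate 2 was marked in 5 genes. Its mean log2 level was 7.62 for Cdkn1a (gap ratio 0.848), 8.35 for Ky (0.776), 7.75 for Serpina3n (0.758), 6.48 for Mtfmt (0.752) and 7.89 for Bhlhe41 (0.748), and its body mass was 100.9%. Replicate 1 was marked at 5.53 for Plat, tissue plasminogen activator (0.723), replicate 3 at 8.17 for Alkbh3 (0.762) and replicate 4 at 4.67 for Metrnl, a secreted factor of muscle (0.755).

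In T, replicate 3 was marked in 3 genes, at 7.60 for Gpr157 (0.743), 6.01 for Slc4a4 (0.645) and 8.87 for Col1a1 (0.626), and its body mass was 91%. T replicate 1 was marked at 7.69 for Prkaa1 (0.642) and T replicate 2 at 5.99 for Xpo1, an exporter of proteins from the nucleus (0.646). The cause of these marks was not tested.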

How the results depend on the processing

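No alternative gave a gene past the threshold between T + WBV and T for the mean of both muscles. For EDL, SOL and their difference, only 1 prior variance, the fit on tumour-bearing mice, the replicate block and the omissions were run, and none gave a call there. The smallest adjusted p of limma for the mean was 0.254 among genes above the median level, 0.484 with 1 prior variance and 0.0882 to 1 over the omitted mice, and without T replicate 3 it was 0.014 in EDL and 0.0412 between the muscles. With body mass as a covariate, Lcn2 and Serpina3n were reversed, at 0.283 and 0.143, and over the omitted mice they ran from −0.952 to 0.231 and from −0.692 to 0.124, above 0 only without T + WBV replicate 2. The cause was not tested. Of 1513 values of 69 genes under 22 alternatives 1509 kept their direction. The 69 include the 24 genes whose sign under each omission was fixed by their choice, and others picked by their p in this comparison. The count is therefore no support for any of them. The 4195 genes of the same direction were 2413 among genes above the median level, where fewer genes are counted. After a second quantile normalization the total was again 4195, but the share that was higher was 45.8% in place of 53.8%. The genes were not all the same, as 1715 of the 2258 higher and 1687 of the 1937 lower genes remained. Omitting mice gave 1.04 to 1.72 mg for the summed mass, and calls between T and C numbered 3991 to 5209 over the omissions. No source used here pairs T and T + WBV mice by replicate number. The deviations of mice with equal numbers correlated at −0.512 to 0.178, which cannot settle whether they were paired. With the replicate block 0 genes passed (smallest adjusted p 0.928 for the mean), and 4349 passed between T and C. The 5 T + WBV mice limit the precision, with a median SE of 0.093.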

Other observations

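Over all genes 4 differed by more than 1 log2 unit between T + WBV and T for the mean of both muscles. The largest were intestinal transcripts of T + WBV replicate 4, and another was Chad of the tendon list, at 1.01. Fabp2 differed by 1.47, Apoa1 by 1.09 and Muc3, a mucin of the intestinal surface, by 1.04 on the log2 scale for the mean of both muscles. Without this mouse the differences of Fabp2, Apoa1 and Muc3 were −0.06, −0.08 and −0.01. Guca2b, which encodes the gut peptide uroguanylin, was at 7.79 in EDL and 10.1 in SOL of that mouse against at most 4.90 and 4.95 in the other tumour-bearing mice, and Vil1, the brush border protein villin, at 5.64 and 7.86 against at most 3.57 and 3.52.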
